A study of Mus musculus with 26 samples.

Results

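The Iroquois genes Irx1, Irx2, Irx3, Irx4 and Irx5 and the related homeobox gene Pitx1 were followed through oral carcinogenesis in mouse tongue. These 6 genes were chosen by name, with stage results of these same libraries already known, and each was found in a row of its own among the 18676 rows of the expression table. RNA was sequenced from paraffin-embedded tongue. The animals were male mice of the inbred CBA strain, and the model relies on the DNA-damaging compound 4-NQO. A laser cut out epithelium, or the stroma with muscle beneath it, from regions a pathologist had mapped as normal, hyperplasia, dysplasia or tumor. Each compartment had 3 normal, 3 hyperplasia, 4 dysplasia and 3 tumor libraries, 26 in all. Normal tissue came from animals aged 16 to 24 weeks and tumor tissue from animals aged 28 to 32 weeks, without overlap, while hyperplasia (20 to 32 weeks) and dysplasia (16 to 32 weeks) spanned both. Whether the animals behind the normal tissue were given 4-NQO is not stated in the labels. They call the libraries of a group biological replicas without naming the animals, so some regions may share an animal, and p-values over them would then be too small.

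Iroquois genes encode homeodomain proteins of the TALE class, which carry an insertion of extra amino acids in the DNA-binding domain, and they pattern neural tissue, heart, limb and epidermis in the embryo. In mouse they lie in a pair of clusters, Irx1, Irx2 and Irx4 on one chromosome and Irx3, Irx5 and Irx6 on another. Pitx1 encodes a paired-type homeodomain protein known for its part in hindlimb and pituitary development and in the oral ectoderm of the first branchial arch.

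In the GRCm38 annotation, Irx1 (chr13:71957921-71963723, minus strand), Irx2 (chr13:72628820-72634198, plus strand) and Irx4 (chr13:73260479-73269608, plus strand) stood in this order, with 665.1 kb between Irx1 and Irx2 and 626.3 kb between Irx2 and Irx4. Irx3 (chr8:91798525-91802067, minus strand) and Irx5 (chr8:92357625-92376286, plus strand) were 555.6 kb apart on chromosome 8. Pitx1 (chr13:55825051-55836192, minus strand) lay elsewhere on chromosome 13. All 6 are protein-coding genes. Among the members, only Irx2 and Irx4 had an upstream sequence that could be shown. Irx1, Irx5 and Pitx1 had no promoter entry, and the Irx3 window lay inside the annotated gene. The sequences shown come from RefSeq promoters of GRCm38.p6, 5′ to 3′ on the plus strand, cut where the annotated gene begins. The Irx2 window is chr13:72628570-72628819 and the Irx4 window is chr13:73260247-73260478. Capitals mark matches to the GC box GGGCGG.
Irx2: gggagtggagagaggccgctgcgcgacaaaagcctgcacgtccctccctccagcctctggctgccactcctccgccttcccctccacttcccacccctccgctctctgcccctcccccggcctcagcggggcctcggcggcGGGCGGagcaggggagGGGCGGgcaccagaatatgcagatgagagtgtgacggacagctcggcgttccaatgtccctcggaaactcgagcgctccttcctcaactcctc
Irx4: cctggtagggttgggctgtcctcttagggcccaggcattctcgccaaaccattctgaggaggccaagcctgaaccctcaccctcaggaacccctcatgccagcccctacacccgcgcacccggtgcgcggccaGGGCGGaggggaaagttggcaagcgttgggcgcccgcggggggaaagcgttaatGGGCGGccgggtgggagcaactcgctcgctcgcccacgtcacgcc
Both strands were searched for GGGCGG, for ACANNTGT, a palindrome described for Iroquois proteins, and for TAATCC, the motif of Pitx proteins. Irx2 held 2 GC boxes, beginning 109 and 93 bases before the annotated start, and a GC box was present in 32.7% of all 32851 promoter windows of that length. Irx4 also held 2, beginning 99 and 45 bases before its start, against 30.1% of windows of its length. Neither window held ACANNTGT, which 6.31% of windows of the Irx2 length held, or TAATCC, which 6.25% held. Both windows had 19 CpG dinucleotides, at a GC content of 68.4% in Irx2 and 68.1% in Irx4.

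Values are log2(TPM + 1) unless TPM is named. TPM is a relative abundance scaled for transcript length, and it keeps no record of sequencing depth. Libraries differed in quality: the 3 genes Lars2, March6 and D17H6S53E took a median of 1.03% of a library's TPM. Their share was 48.4% in normal stroma 1, 55.0% in dysplasia stroma 2 and 87.0% in hyperplasia stroma 1, the last of which listed 9382 genes at 0. Stroma results are therefore given with and without these 3 libraries, or 1 of them, where they move. The mean of 156 olfactory receptor genes, taken here as a background level, ran from 0.40 to 2.36. The compartments were distinct by their markers. All 9 tested genes of differentiating keratinocytes were higher in epithelium, and all 8 fibroblast and all 12 skeletal muscle genes were higher in stroma. Basal keratinocyte markers separated less well, with 4 of 8 higher in epithelium and 1 lower, and their mean level in stroma groups was still 5.47 to 6.43. In such bulk samples, fewer cells of a type and less RNA per cell cannot be told apart.

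Irx2 was the member whose level differed most between stages of epithelium. In normal epithelium its value was 0.31, 0 and 1.60 in the 3 libraries. In hyperplasia epithelium it was 4.23, 3.37 and 2.86. In dysplasia epithelium it was 3.84, 3.25, 4.89 and 4.41. Every hyperplasia and dysplasia library was thus above every normal library, while these lesion groups overlapped each other. How many of all genes separated the groups as fully was not counted, for these stages or for tumor. In tumor epithelium Irx2 was 3.08, 1.83 and 2.02, below all 4 dysplasia libraries and above all 3 normal ones. As mean TPM, these levels were 0.758 in normal, 11.1 in hyperplasia, 17.7 in dysplasia and 4.35 in tumor epithelium. Irx2 was above the olfactory receptor mean in 10 of 13 epithelium libraries and above the 90th percentile of those genes in 5. In stroma these counts were 7 and 2 of 13. For the 3 tumor epithelium libraries, in the order above, that percentile was 3.66, 2.18 and 2.63, each above the Irx2 value.

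**Figure D1:**
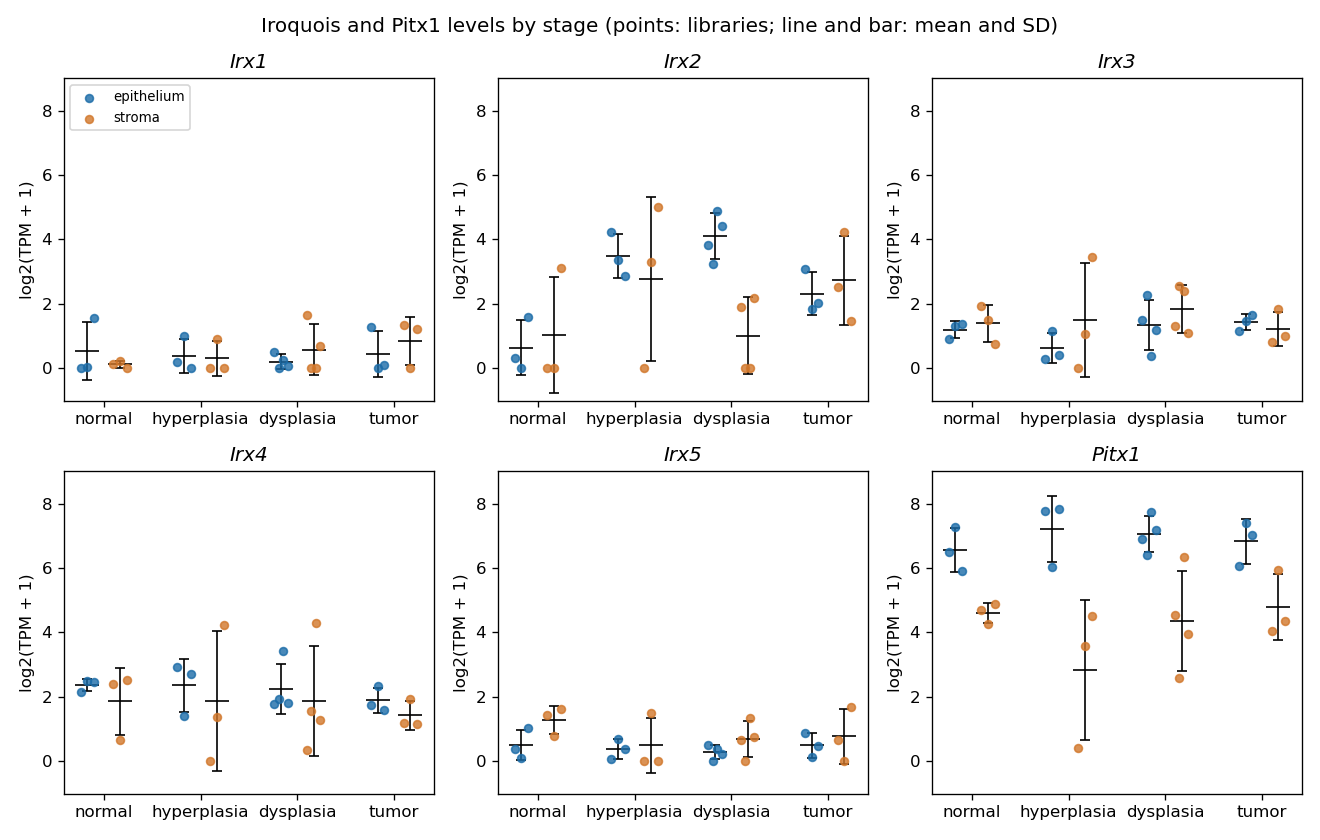
Level of each member as log2(TPM + 1) by stage, with epithelium in blue and stroma in orange, points for libraries and black lines and bars for mean and SD. In epithelium Irx2 sits between 2.86 and 4.89 in hyperplasia and dysplasia, and at or below 1.60 in normal tissue. Pitx1 has the highest log2 mean of the members in every group, though Irx2 is close in hyperplasia stroma (2.77 against 2.83). As mean TPM, Irx2 is above Pitx1 there (13.3 against 11.1).

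Fitted with limma across all genes, with the sequencing run as a term, the log2 difference of Irx2 in epithelium was 2.71 ± 0.52 (SE) for hyperplasia against normal and 1.54 ± 0.52 for tumor against normal. It was -1.85 ± 0.48 for tumor against dysplasia. Dysplasia against normal, a comparison added after the values were seen, gave 3.39 ± 0.48. Since stage results of epithelium were known when the genes were chosen, these values are a description. At an adjusted p under 0.05 no member was called for hyperplasia against normal, where 0.0354% of 14126 tested genes were, or for tumor against normal (0.0496%). No gene at all was called for dysplasia against hyperplasia (0%) or tumor against dysplasia (0%), although 279 and 322 genes had an unadjusted p under 0.05. For dysplasia against normal, Irx2 was 1 of 66 genes called (0.467%), the other members not among them.

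Within the sequencing runs, the difference between dysplasia and normal epithelium for Irx2 was 2.76 in run 1 (2 and 1 libraries) and 3.68 in run 2 (2 and 2 libraries). Tumor was below dysplasia by a similar amount in each run, at -1.816 (2 and 2 libraries) and -1.996 (1 and 2 libraries). Hyperplasia against normal was less even, at 1.51 in run 1 (2 and 1 libraries) and 4.08 in run 2 (1 and 2 libraries). Several of these values thus rest on a single library of a group. The only normal library above 0.31, normal epithelium 3, was also the only normal one of run 1, and it had the highest olfactory receptor mean of its group (1.82, against 0.91 and 0.85).

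Markers of other cells and of keratinocyte state also differed between these groups. The mean level of the 6 macrophage markers ranged from 0.65 to 1.48 in normal epithelium, from 1.65 to 2.26 in hyperplasia, from 1.57 to 2.57 in dysplasia and from 1.85 to 2.76 in tumor epithelium. Every lesion library was thus above every normal one, as for Irx2, a separation whose share over all genes was not counted. Of these markers, 5 of 6 had a higher value in dysplasia than in normal epithelium, and Cd68, a lysosomal protein of macrophages, passed the test (2.07 ± 0.41). The 9 markers of differentiating keratinocytes kept in the table had a mean level of 9.16 ± 0.58 (SD, n = 3) in normal and 7.22 ± 1.49 (n = 4) in dysplasia epithelium. The value of 8 of them was lower in dysplasia, and Krt10, a keratin of cornifying cells, passed the test (-4.50 ± 0.85). All 12 skeletal muscle markers had a lower value in dysplasia than in normal epithelium, where their mean level ranged from 1.17 to 5.76, with none passing the test. The part of these markers in the Irx2 differences from normal epithelium was not tested.

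Between dysplasia and tumor, the 12 skeletal muscle markers had a mean level that ranged from 1.12 to 1.69 in dysplasia epithelium and from 2.94 to 4.97 in tumor epithelium, and all 12 had a higher value in tumor, none passing the test. The 8 fibroblast markers ranged from 2.86 to 3.81 in dysplasia and from 3.87 to 5.21 in tumor epithelium. The 8 basal keratinocyte markers kept in the table ranged from 6.82 to 8.19 in dysplasia and from 5.90 to 7.48 in tumor epithelium. Differentiating keratinocyte markers ranged from 5.94 to 8.80 in dysplasia and from 8.07 to 8.87 in tumor epithelium, 8 of 9 with a higher value in tumor. The 5 minor salivary gland markers kept ranged from 0.09 to 0.99 in dysplasia and from 0.56 to 4.45 in tumor epithelium. No marker of these lists was at 0 in a whole group. Their part in the lower Irx2 of tumor epithelium was not tested.

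**Figure D2:**
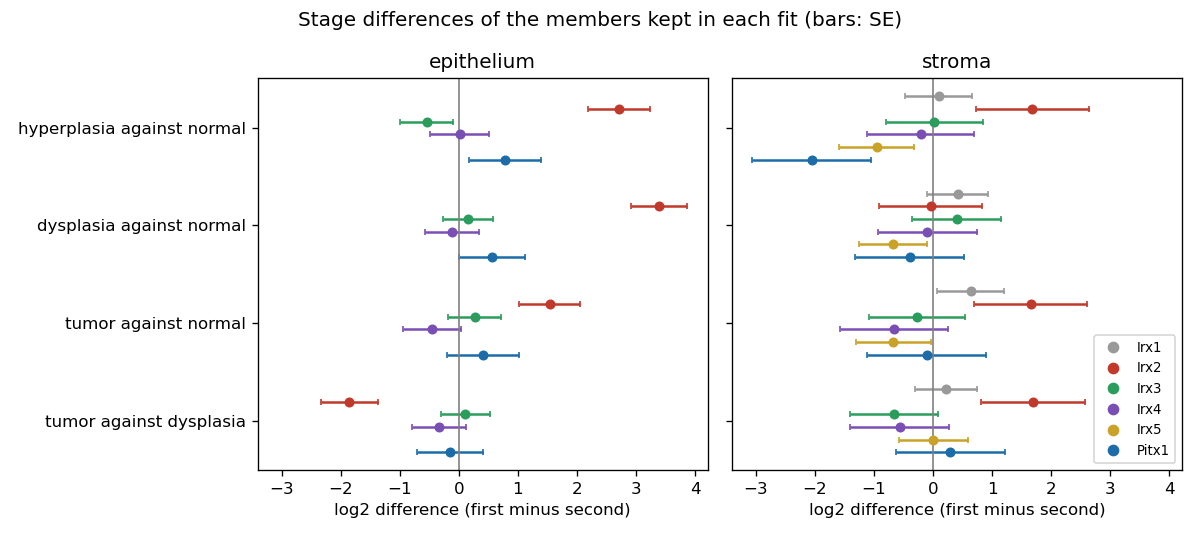
Log2 differences between stages (first minus second, on the log2(TPM + 1) scale) in epithelium and stroma for the members kept by the filter, with bars for SE. In epithelium Irx2 stands at 2.71, 3.39 and 1.54 against normal and at -1.85 for tumor against dysplasia, and the other members lie within 1 of 0, while SEs in stroma are wider.

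The stroma libraries gave no such order for Irx2. It was listed at 0 in 2 of 3 normal, 1 of 3 hyperplasia and 2 of 4 dysplasia stroma libraries. Its other values were 3.11 in normal, 3.30 and 5.01 in hyperplasia, and 1.90 and 2.18 in dysplasia stroma. In tumor stroma it was 2.51, 4.22 and 1.48. All 4 groups overlapped, and 3 of the 5 libraries at 0 were those led by Lars2, March6 and D17H6S53E. Log2 differences in stroma were 1.69 ± 0.96 for hyperplasia against normal, -1.73 ± 0.88 for dysplasia against hyperplasia, 1.69 ± 0.88 for tumor against dysplasia and 1.65 ± 0.96 for tumor against normal. None passed the test (limma, adjusted p of 0.704, 0.637, 1 and 1.00). Without the 3 doubted libraries, these were 3.57, -3.44, 1.38 and 1.50. Single libraries moved them widely. Without hyperplasia stroma 1 the differences of hyperplasia from normal and of dysplasia from hyperplasia were 3.79 and -3.64, and without hyperplasia stroma 3 they were 0.65 and -0.63. Without normal stroma 2 and without normal stroma 3, hyperplasia against normal was 0.80 and 2.68, and tumor against normal was 0.77 and 2.65. Without tumor stroma 2, tumor against dysplasia was 0.57 and tumor against normal 0.42. With age as a covariate, hyperplasia against normal was 0.61, tumor against dysplasia 0.46 and tumor against normal -0.66, the opposite direction. Over the 25 alternatives of each comparison none of these passed the test.

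No member was called in any stage comparison of stroma. The share of all 14883 tested genes that was called there was 0.00672% for hyperplasia against normal, 0% for dysplasia against hyperplasia, 0.141% for tumor against dysplasia, 0.0806% for tumor against normal and 0.0403% for dysplasia against normal. Where no gene was called, 1139 had an unadjusted p under 0.05. Whether the step from dysplasia to tumor differed between compartments was tested in 13 pairs of an epithelium and a stroma library. For Irx2 the difference of the 2 steps was -3.50 ± 1.27, with an unadjusted p of 0.0113 and an adjusted p of 1.00 in limma. For this test and for the same test of tumor against normal, 0% and 0% of 15499 genes were called, with 342 and 194 genes at an unadjusted p under 0.05. A different course of Irx2 in the compartments was therefore not established across all genes.

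Irx4, the cluster neighbour of Irx2, showed no such pattern. Its mean in epithelium was 2.37 ± 0.19 (SD, n = 3) in normal, 2.36 ± 0.83 (n = 3) in hyperplasia, 2.24 ± 0.79 (n = 4) in dysplasia and 1.89 ± 0.39 (n = 3) in tumor tissue. All 4 groups overlapped, and the value reached a TPM of 1 in all 13 epithelium libraries. Irx4 was above the olfactory receptor mean in 12 of 13 epithelium libraries and above the 90th percentile of those genes in 5. In stroma these counts were 6 and 2 of 13. In stroma Irx4 ran from 0 in hyperplasia stroma 1 to 4.30 in dysplasia stroma 3, with group means from 1.43 to 1.88. Irx1, the third gene of this cluster, was near background. In epithelium it reached a TPM of 1 in only 2 of 13 libraries and was left out by the filter on low values there. Its 3 highest epithelium values, 1.58 in normal epithelium 3, 1.28 in tumor epithelium 1 and 1.00 in hyperplasia epithelium 2, fell in the 3 libraries with the highest olfactory receptor means (1.82, 1.47 and 1.90). Irx1 was below that mean in all 13 epithelium libraries and in 12 of 13 stroma libraries.

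In the other cluster, Irx3 was low and not clearly apart from background. It was above the olfactory receptor mean in 7 of 13 epithelium and 7 of 13 stroma libraries, and above the 90th percentile of those genes in 0 and 1. Its mean in epithelium was 1.20 ± 0.25 (SD, n = 3) in normal, 0.62 ± 0.46 (n = 3) in hyperplasia, 1.34 ± 0.78 (n = 4) in dysplasia and 1.43 ± 0.24 (n = 3) in tumor tissue. In stroma it was 1.39 ± 0.58, 1.51 ± 1.77, 1.84 ± 0.73 and 1.22 ± 0.54 in the same order, and all neighbouring groups overlapped. Tumor epithelium (lowest 1.17) lay just above hyperplasia epithelium (highest 1.15). That comparison was not fitted, and the share of all genes separated as fully was not counted. Irx5 had epithelium means from 0.28 in dysplasia to 0.51 in normal tissue and was left out by the filter there. It was below the olfactory receptor mean in all 13 epithelium libraries, and its 3 highest ones were the same libraries as for Irx1. In normal stroma Irx5 was 1.43, 0.80 and 1.63, and its stroma means in the lesions were 0.50 to 0.78, with overlapping groups. Irx6, the remaining gene of that cluster, did not reach a TPM of 1 in any of the 26 libraries.

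**Figure D3:**
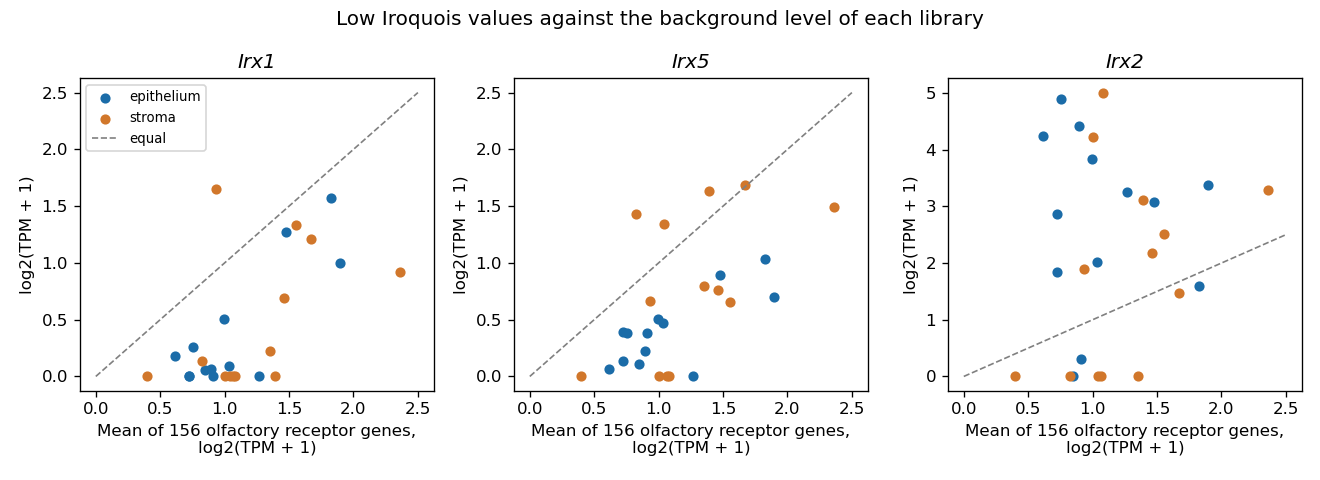
Level of Irx1, Irx5 and Irx2 in each library (vertical axis, log2(TPM + 1)) against the mean of 156 olfactory receptor genes in that library (horizontal axis, same scale), with epithelium in blue, stroma in orange and a dashed line where both are equal. All 13 epithelium libraries lie below the line for Irx1 and Irx5, while 10 of 13 lie above it for Irx2. The 90th percentile of the olfactory receptor genes, not drawn, was exceeded by Irx2 in 5 of 13 epithelium libraries.

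Pitx1 was the most abundant member, and it was higher in epithelium than in the paired stroma. Its epithelium mean exceeded that of 98.5% of genes. In epithelium the values were 6.50, 7.28 and 5.92 in normal, 7.76, 6.05 and 7.83 in hyperplasia, 6.89, 6.41, 7.73 and 7.19 in dysplasia, and 6.06, 7.40 and 7.04 in tumor tissue. The 4 stages overlapped. As mean TPM, Pitx1 was 101.0 in normal, 169.3 in hyperplasia, 139.3 in dysplasia and 121.2 in tumor epithelium. In stroma it was 4.69, 4.26 and 4.88 in normal, 0.40, 3.58 and 4.52 in hyperplasia, 4.54, 2.58, 6.34 and 3.94 in dysplasia, and 4.05, 5.95 and 4.34 in tumor tissue. Across unpaired libraries the compartments overlapped, since dysplasia stroma 3 at 6.34 was above the epithelium libraries at 5.92, 6.05 and 6.06.

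Pitx1 was higher in epithelium than in stroma in 13 of 13 pairs, by 1.38 to 7.36 with a median of 2.47. Averaged with equal weight over the 4 stages, the log2 difference was 2.77 ± 0.34 (limma, adjusted p = 2.32e-06). This was 1 of 4577 genes called among 15499, or 29.5%, and Pitx1 was the only member called of the 6. With so large a share of all genes called, a single call among 6 members says little about the group. Within run 1 the mean difference was 2.35 over 7 pairs, and within run 2 it was 3.25 over 6 pairs. The pair with 7.36 held hyperplasia stroma 1, and without the 3 doubted stroma libraries the difference was 2.32 (adjusted p = 1.55e-06). Each pair shared its stage, code number, age and run, but the labels do not name such pairs. Unpaired, the difference was the same and the adjusted p was 5.35e-06. Of the other members, Irx5 differed by -0.40 ± 0.19 (unadjusted p = 0.0493, limma adjusted p = 0.122), and the differences of Irx1, Irx2, Irx3 and Irx4 lay between -0.34 and 0.74 with none called.

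**Figure D4:**
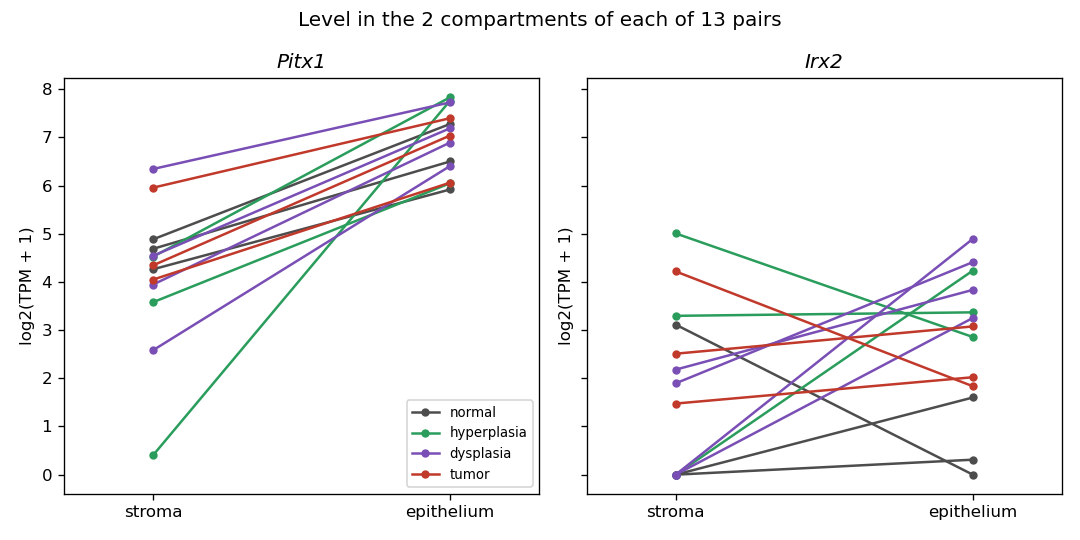
Level of Pitx1 and Irx2 as log2(TPM + 1) in the stroma and epithelium library of each of 13 pairs, joined by a line and coloured by stage. Every line rises toward epithelium for Pitx1, while for Irx2 10 rise and 3 fall.

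Stage differences of Pitx1 in stroma leaned on a single library. The log2 difference was -2.05 ± 1.01 for hyperplasia against normal (unadjusted p = 0.0447, limma adjusted p = 0.704) and 1.66 ± 0.92 for dysplasia against hyperplasia (adjusted p = 0.638). Without hyperplasia stroma 1 these were -0.58 and 0.32. Over the 25 alternatives of each comparison they ran from -2.90 to -0.23 and from 0.32 to 2.36, with none called. The median difference over all genes in the same comparisons was -0.72 and 0.65. Without the 3 doubted libraries that median was 0.32 and -0.02, with more libraries left out than in the Pitx1 values without hyperplasia stroma 1.

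Pitx3, known for its part in lens and midbrain dopamine neurons, had means of at most 1.28 in any group.

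Other transcription factor lists place these compartment differences. Of all 15499 genes tested in the pairs, 2896 were called higher in epithelium and 1681 lower, together 29.5%. Of 16 factors of oral keratinocytes, 15 were higher in epithelium and none lower, with a median difference of 2.09 against 0.16 over all genes. The largest were Grhl3 (3.31 ± 0.30), which acts in the epidermal barrier, Ovol1 (3.21 ± 0.33), Grhl1 (2.89 ± 0.28) and Zfp750 (2.85 ± 0.32), each with a limma adjusted p of at most 6.48e-07. Of 25 craniofacial and oral homeobox genes, 6 were called higher in epithelium and another 6 were called higher in stroma. The largest were Prrx1 (-2.41 ± 0.27), a factor of mesenchyme, Dlx3 (2.37 ± 0.27), Dlx5 (1.92 ± 0.28) and Barx2 (1.90 ± 0.36). Of 12 other TALE homeobox genes only Pknox2 was called, at -1.04 ± 0.28 and thus higher in stroma (adjusted p = 0.00716). Beside the share over all genes, the calls in the craniofacial and TALE lists say little about those lists. Across the stages of epithelium, Tlx1 was the only gene of these lists called. Its log2 difference was -3.53 ± 0.70 for dysplasia against normal epithelium (limma, adjusted p = 0.0217), and it was also called lower in hyperplasia, the opposite direction to Irx2.

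Likeness was taken over the 12410 genes that reached a TPM of 1 in 7 or more epithelium libraries. Those whose log2 values followed Irx2 most closely over the 13 epithelium libraries were Sp9 (Pearson r = 0.91), Fam19a5 (0.90) and Hpgds (0.88). For Pitx1 they were Hgs (0.98), Tor1aip2 (0.98) and Cdh1 (0.97), the last of which encodes E-cadherin, the adhesion protein of epithelial junctions. For Irx4 they were Dnajc30 (0.91), Cabin1 (0.90) and Acbd4 (0.90), and for Irx3 Dclk1 (0.87) and Il11 (0.84). For Irx1 they were the olfactory receptor gene Olfr735 (0.93), Lpl (0.93) and Txk (0.92), and for Irx5 Spic (0.93) and the muscle myosin gene Myh8 (0.92). These correlations describe 13 libraries that share stage, background level and composition. Between members, Irx1 and Irx5 had r = 0.90 in epithelium, and both were lower where Pitx1 was higher (r = -0.72 and -0.65). In stroma the same correlations were 0.28, 0.01 and 0.37. Irx1 and Irx5 were below the olfactory receptor mean in all 13 epithelium libraries, so their values there were not clearly apart from background. What lies behind their correlations was not tested.

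Some measured genes near the members also differed between compartments, in a comparison where 29.5% of all 15499 tested genes were called. A few calls among neighbours therefore say little about these loci. Mrpl36 (1.20 ± 0.30), a mitochondrial ribosomal protein gene beyond Irx4, and the histone variant gene H2afy (1.11 ± 0.34) beyond Pitx1 were called higher in epithelium (limma, adjusted p of 0.0039 and 0.0169). Near the other cluster, Mmp2, a matrix metalloproteinase, was higher in stroma (-1.94 ± 0.28, limma adjusted p = 1.68e-05). Mrpl36 lay 58.9 kb from Irx4, H2afy 237.4 kb from Pitx1 and Mmp2 451.0 kb from Irx5.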

How the data were processed

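Expression was analysed in 26 RNA-seq libraries. The submitters' processing notes name the build GRCm38.p6 and, without role or order, Salmon 0.9.1, HTSeq 0.10.0, STAR 2.5.1b, Trimmomatic 0.36, SAMtools 1.6, FastQC 0.11.5 and bcl2fastq 2.20. The authors deposited log2 values of TPM plus a pseudocount of 1, a scale read from the values. Depth is unknown, so no counting interval was made, and log2 differences understate changes of low genes. Only rows whose gene identifier occurs once were kept (16397), and 0 columns fell outside the samples.

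In R 4.3.3, limma 3.58.1 fitted the 4 stages and run per compartment to genes that reached a TPM of 1 in 3 or more libraries (14126 in epithelium, 14883 in stroma), with empirical Bayes moderation following the mean level. Prior degrees of freedom were 13.5 and 71.8 beside 8 residual ones, so stroma SEs rest mostly on spread pooled over genes. Epithelium and stroma were compared within 13 pairs (15499 genes). The pair analysis was first run with the trend on the mean difference, limma's default there. It was set to the planned mean level after those results were seen, and the first form is kept as an alternative. P-values were Benjamini-Hochberg adjusted over all genes, with a threshold of 0.05. The code was tested on simulated data.

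The members and lists were chosen with earlier results of these data known. A member's difference is named where it is at least 1 in size or has an unadjusted p under 0.05, with up to 4 called genes per list, the 2 nearest measured genes on each side, of which some are given, and the 3 most correlated genes per member. Some genes that this rule names are not reported here. Dysplasia against normal, and the analysis without 3 stroma libraries, were added after the values were seen. Alternatives changed the pseudocount, filter, scaling, rows, covariates, pairing, trend and libraries.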

Additional observations from a re-analysis of the deposited data

Results flagged for a closer look

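Irx4 in dysplasia epithelium 3 was 3.42, far from the other 3 libraries of its group, which lay between 1.79 and 1.94. The gap to the nearest of them was 0.909 of the group's range, above Dixon's limit for a group of 4 libraries. The same library had the highest Irx2 (4.89) and Pitx1 (7.73) of its group. It was 1 of 12 sets of 4 libraries examined, and chance flags about 1 in 20.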

How the results depend on the processing

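Irx2 in dysplasia against normal epithelium was called in all 24 alternatives, with differences from 3.10 to 5.12 and limma adjusted p from 5.59e-05 to 0.0443. The alternatives reuse these same libraries, and the comparison was added after the values were seen, so the calls remain a description. For hyperplasia against normal epithelium the number of members called rose from 0 to 1, always Irx2, in 9 of 24 alternatives, among them a stricter filter (adjusted p = 0.0240), all rows (0.0465), no run term (0.0370) and 6 that left out a library. In the other 15 alternatives Irx2 was not called. Its limma adjusted p was 0.0638 in the analysis as reported, and its difference ran from 1.91 to 4.32 over the alternatives. Over single libraries left out, the number of members called ran from 0 to 1. Pitx1 in epithelium against stroma was called in all alternatives run, with differences from 2.18 to 3.01. With the trend on the mean difference, an alternative added after seeing the data and the first form run, its SE was 0.39 and adjusted p 5.96e-05, against 0.34 and 2.32e-06 as reported, and 4611 genes were called. Irx2 in tumor against normal stroma reversed to -0.66 with age as a covariate; the cause was not tested. With the replicate number of the titles as a block, Irx2 differed by 2.75 for hyperplasia and 3.25 for dysplasia against normal epithelium (limma, adjusted p of 0.105 and 0.0251), and no call of a member changed. In epithelium the libraries numbered 1 were aged 16, 20, 24 and 32 weeks. Deviations from the group mean of same-numbered epithelium libraries correlated from -0.73 to 0.58, with 6 of 18 over 0.1. With groups of 3 or 4 libraries, such correlations cannot decide whether samples are paired. For the 13 pairs of epithelium and stroma used here, the same correlation ran from -0.12 to 0.60, with 7 over 0.1. That pairing therefore remains an inference. Unknown depth limits what can be said of Irx1, Irx5 and Irx6.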
